A study of Mus musculus with 25 samples.

Results

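The genes described here are 38 listed genes that act in the cell division cycle, from entry into S phase to cytokinesis. They were taken by symbol, and each was read from 1 probe set, the one with the highest mean log2(signal + 16) over all 25 arrays among those annotated to that gene alone. Of the 38, 37 had such a probe set, out of 18193 genes on the array. Ccnb1, a mitotic cyclin, had none and has no value here. A filter on low values, a mean above 6.49 on this scale, left 12937 genes, 30 of the listed genes among them. The 7 listed genes under it were Cdc6, Tyms, Aurka, Aurkb, Bub1b, Kif11 and Kif20a. They are given as levels without a test.

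Whole lungs came from wildtype female C57BL/6J mice of 14 to 17 weeks weighing 20 to 25 g, 1 array per mouse. Control mice were unirradiated and given phosphate-buffered saline (PBS; n = 4). In 3 groups of unirradiated mice a compound was injected intraperitoneally at 0.1 mg/kg, 2 times a week: (S)-FTY720-phosphonate in fTyS, SEW-2871 in SEW and FTY720 in FTY (n = 3 per group). A single thoracic dose of 25 Gy was given alone in the radiation group (n = 3) and together with 1 of these compounds in radiation+fTyS, radiation+SEW and radiation+FTY (n = 3 per group). All 3 compounds act on receptors for sphingosine 1-phosphate (S1P). FTY720 (fingolimod) is phosphorylated in the body before it binds them, fTyS carries a phosphonate in place of that phosphate, and SEW-2871 activates the receptor S1pr1 and has a structure unlike that of sphingosine. The interval between irradiation and collection is not given in the sources used here.

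Cells enter the cycle when E2f transcription factors switch on the genes of DNA replication. The origin-loading proteins Cdc6 and Cdt1 then place the MCM helicase on DNA, and ribonucleotide reductase supplies deoxynucleotides. A later wave of transcription, led by Foxm1 and relatives of the Myb family, makes the mitotic cyclins, their kinase Cdk1 and the proteins of the kinetochore and spindle. Most cells of the adult lung are quiescent, and these transcripts in a whole organ come from the small part of its cells that divides. In bulk RNA, fewer cells of a type and less RNA per cell cannot be told apart.

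One array stood apart from the others in these genes, and every result that rests on it is given with and without it. Averaged over the 30 tested genes, FTY replicate 3 had a level of 9.10, whereas the other 24 arrays ran from 7.62 (control replicate 3) to 8.37 (radiation+SEW replicate 1). The other FTY arrays had 7.69 and 7.73. Of the 37 measured genes, 34 had their highest level of all arrays on FTY replicate 3. Among the tested genes the count was 28 of 30 (93.3%), beside 794 of all 12937 genes tested (6.14%). The exceptions were E2f1, Ccne1 and Tyms.

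**Figure D1:**
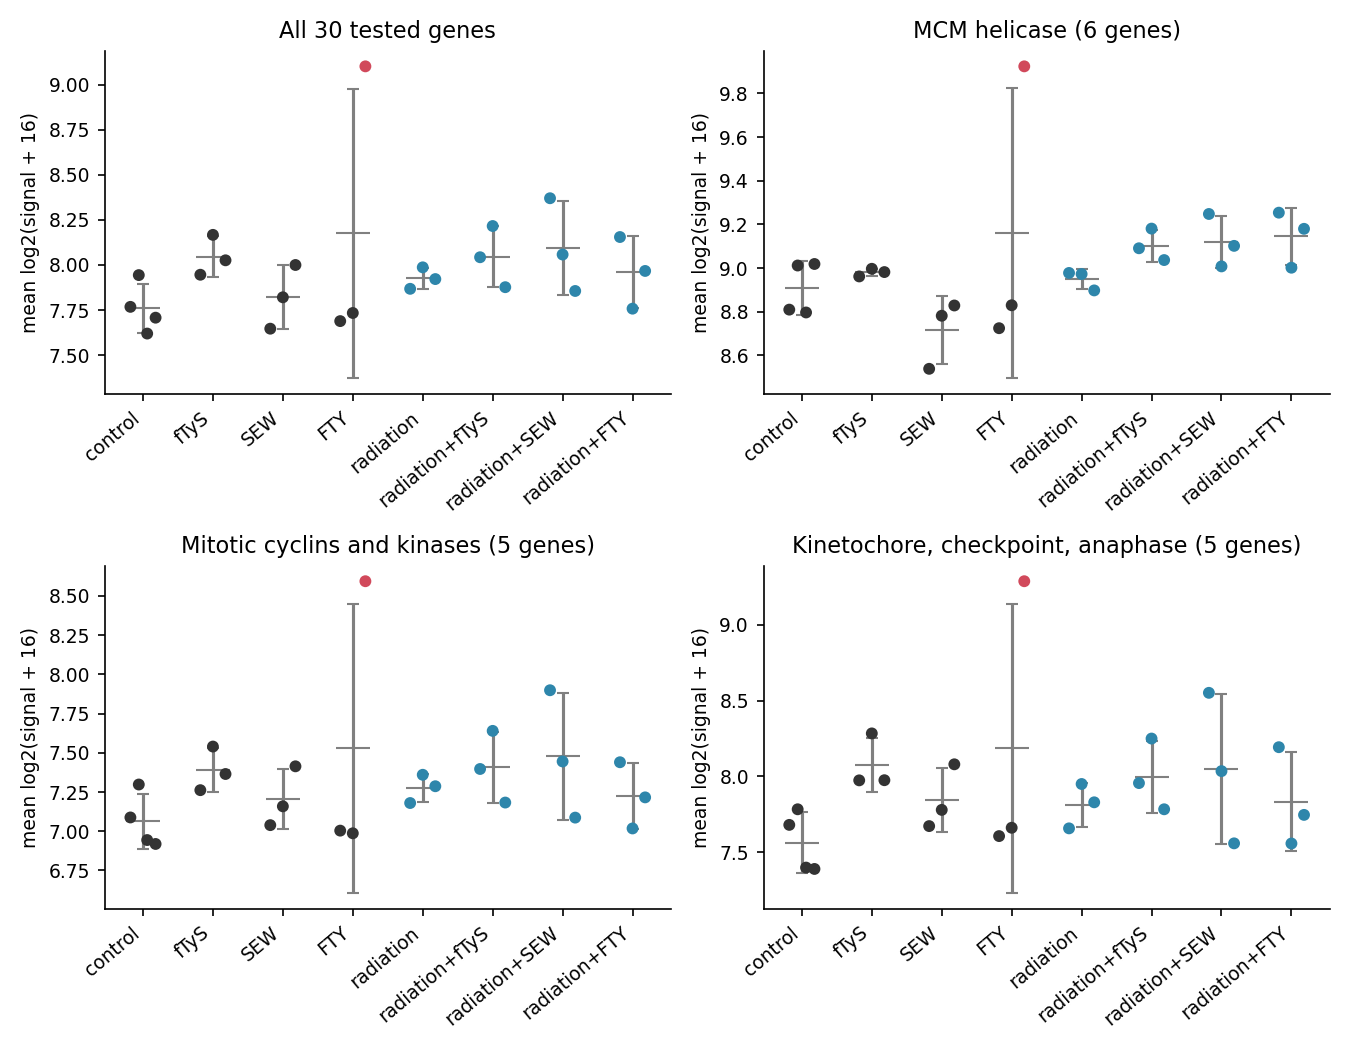
Each point is the mean log2(signal + 16) of the named genes on 1 array, grouped by treatment, with unirradiated arrays in black, irradiated arrays in blue and FTY replicate 3 in red; the grey lines are the group mean and SD over all arrays of the group. The mean over the 30 tested genes was 9.10 on FTY replicate 3 and 7.62 to 8.37 on the other 24 arrays. The mitotic cyclins and kinases include Foxm1.

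The gap differed in size from gene to gene. Compared with the mean of FTY replicates 1 and 2, FTY replicate 3 was more than 2-fold higher in 24 of the 37 measured genes (64.9%), beside 193 of all genes tested (1.49%). The 37 include the 7 genes under the filter, and the genes tested include none under it. The largest differences on the log2 scale were 2.96 for Rrm2, the small subunit of ribonucleotide reductase, 2.68 for Top2a, the topoisomerase that untangles sister DNA, and 2.62 for Mki67, the antigen Ki-67. Birc5 (survivin, part of the chromosomal passenger complex) followed with 2.54 and Ube2c, a ubiquitin-conjugating enzyme of the anaphase-promoting complex, with 2.49. Differences above 2 were also found for Ccna2 (2.31), Ccnb2 (2.29), Nusap1 (2.25), Kif11 (2.12) and Cdk1 (2.09). At the other end were Foxm1 with 0.37, E2f1 and Tyms with 0.25 each, and Ccne1, a cyclin E, with 0.17. The choice of probe set mattered for some genes. Another Top2a probe set, above the filter, differed by 0.35, and another of Ccne1, under the filter, by 0.70. The median over the 37 genes was 1.26, that over the 30 tested genes among them 1.13, and that over all genes tested -0.01. These are differences of 1 array from the other arrays of its group, with no test.

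Markers of thymocytes, the T cell precursors of the thymus, were high on the same array. The mean of 10 thymocyte genes on FTY replicate 3 was 9.41 and on the other 24 arrays 5.80 to 6.20, with all 10 genes highest there. Rag1, which cuts antigen receptor genes for their assembly in lymphocyte precursors, had 11.9 there and 4.09 to 4.79 on the other arrays. Dntt, the polymerase that adds bases at those joints, had 10.4 and elsewhere 5.49 to 6.10. Cd8a had 10.5 there and 6.20 to 7.50 elsewhere, and Cd8b1 10.05 and 5.77 to 6.84. Ptcra and Cd4 lay only a little over the other arrays, at 6.61 (elsewhere 5.0 to 6.04) and 4.94 (elsewhere 4.09 to 4.88). A list of 6 T cell genes averaged 9.18 there and 7.17 to 8.02 elsewhere, with 5 of them highest on that array. A list of 5 germinal centre genes averaged 7.85 there and 6.96 to 7.37 elsewhere, with 2 of them, Rgs13 and Gcsam, highest on that array. The 10 lung epithelial and endothelial markers averaged 12.57 there, within the 12.49 to 12.78 of the others but below the other FTY arrays (12.68 and 12.76). Sftpb, at 12.23 (elsewhere 12.25 to 12.57), and Sftpa1, at 13.14 (elsewhere 13.16 to 13.43), were lowest on that array. The rest of these markers lay within the range of the other arrays. The lists of B cells, plasma cells, neutrophils and their precursors, erythroid precursors, alveolar macrophages, cytotoxic cells, muscle, fat and the DNA-damage response lay within the range of the other arrays. The part of the thymocyte and T cell transcripts in the cell cycle levels of this array was not tested.

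**Figure D2:**
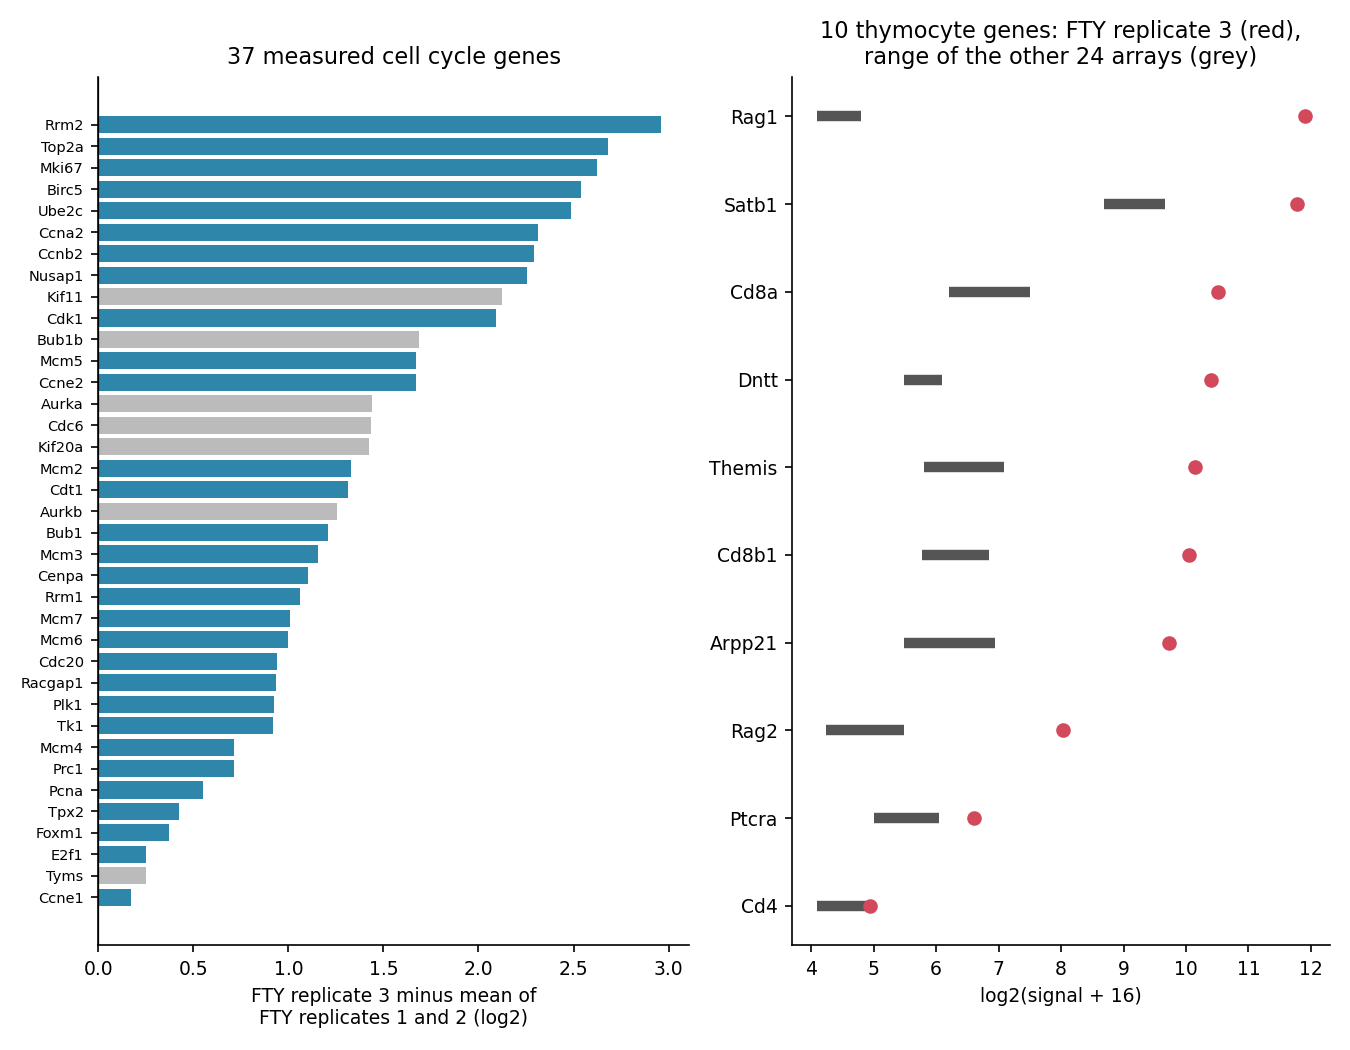
The left panel gives, for the 37 measured cell cycle genes, the log2 level on FTY replicate 3 minus the mean of FTY replicates 1 and 2, in blue for the tested genes and grey for those under the filter on low values. In the right panel the level of 10 thymocyte genes on FTY replicate 3 (red points) is set against the range of the other 24 arrays (bars); Rag1 was at 11.9 there and at no more than 4.79 elsewhere.

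The general proliferation markers Mki67 and Top2a show the pattern over all arrays. Mki67 levels on the log2(signal + 16) scale were 7.78, 8.07, 7.30 and 7.06 in control, 8.03, 8.44 and 8.34 in fTyS, 7.57, 7.88 and 8.17 in SEW and 7.40, 7.34 and 9.99 in FTY. Among the irradiated arrays Mki67 had 7.83, 7.99 and 7.93 with radiation alone, 8.11, 8.30 and 7.73 in radiation+fTyS, 8.57, 8.08 and 7.68 in radiation+SEW and 8.31, 7.26 and 7.98 in radiation+FTY. Outside FTY replicate 3 the highest value was on radiation+SEW replicate 1 and the lowest on control replicate 4, and each irradiated group overlapped with its unirradiated counterpart. Top2a had 7.95, 8.17, 7.46 and 7.55 in control, 8.23, 8.75 and 8.39 in fTyS, 7.90, 8.03 and 8.40 in SEW and 7.72, 7.75 and 10.41 in FTY. After irradiation, Top2a was at 8.02, 8.22 and 8.15 with radiation alone, 8.39, 8.79 and 8.05 in radiation+fTyS, 9.13, 8.36 and 7.74 in radiation+SEW and 8.44, 7.49 and 7.99 in radiation+FTY. All 3 fTyS arrays lay above all 4 control arrays in Top2a, with a log2 fold change of 0.67 ± 0.46 (SE; adjusted p = 0.474, limma), so the difference did not pass the test. Unless stated, fold changes and tests are those of 1 limma fit over the 8 groups and all 25 arrays, so FTY replicate 3 enters each SE. The p-values were adjusted by the Benjamini-Hochberg method over the 12937 genes, and a gene is called at an adjusted p of at most 0.05.

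Cdk1 is the kinase that the mitotic cyclins bind to drive entry into mitosis. For Cdk1, levels of 7.49, 7.84, 7.22 and 7.28 in control, 7.72, 8.34 and 7.82 in fTyS, 7.36, 7.54 and 7.87 in SEW and 7.30, 7.45 and 9.47 in FTY were measured. With 25 Gy, Cdk1 had 7.72, 7.90 and 7.64 with radiation alone, 7.98, 8.35 and 7.59 in radiation+fTyS, 8.74, 8.14 and 7.45 in radiation+SEW and 8.19, 7.40 and 7.70 in radiation+FTY. The lowest values were those of control replicates 3 and 4, and fTyS replicate 2 and radiation+SEW replicate 1 were the highest in their groups. Ccna2, cyclin A, was measured at 7.45, 7.83, 7.28 and 7.05 in control, 7.86, 8.37 and 8.06 in fTyS, 7.41, 7.60 and 8.0 in SEW and 7.44, 7.27 and 9.66 in FTY. Irradiated lungs had Ccna2 levels of 7.63, 7.93 and 7.80 with radiation alone, 7.97, 8.29 and 7.61 in radiation+fTyS, 8.81, 8.11 and 7.61 in radiation+SEW and 8.13, 7.35 and 7.83 in radiation+FTY. Ccna2 in all fTyS arrays was above all control arrays, while FTY replicates 1 and 2 lay within the control range. Ccnb2, a cyclin B, had 6.88, 7.31, 6.71 and 6.77 in control, 7.40, 7.61 and 7.46 in fTyS, 7.14, 7.14 and 7.59 in SEW and 6.81, 6.80 and 9.10 in FTY. In irradiated mice Ccnb2 was at 7.32, 7.29 and 7.26 with radiation alone, 7.53, 7.98 and 7.34 in radiation+fTyS, 8.21, 7.63 and 7.01 in radiation+SEW and 7.54, 6.83 and 7.11 in radiation+FTY. The highest of the 24 arrays was again radiation+SEW replicate 1 at 8.21, while radiation+SEW replicate 3 had 7.01.

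Of the genes of anaphase and the spindle, those with the largest gap on FTY replicate 3 are given on every array. Ube2c had 6.85, 7.11, 6.37 and 6.59 in control, 7.41, 8.02 and 7.46 in fTyS, 7.09, 7.48 and 7.73 in SEW and 6.76, 6.81 and 9.27 in FTY. Its irradiated levels were 7.26, 7.30 and 7.21 with radiation alone, 7.52, 7.84 and 7.02 in radiation+fTyS, 8.23, 7.44 and 6.52 in radiation+SEW and 7.57, 6.46 and 7.39 in radiation+FTY. With 4 control arrays between 6.37 and 7.11, Ube2c in all 3 fTyS arrays and all 3 radiation arrays lay above control, but its log2 fold changes of 0.90 ± 0.47 for fTyS and 0.53 ± 0.47 for radiation had adjusted p = 0.366 and 0.638 (limma). Birc5 was at 7.63, 7.86, 7.14 and 7.16 in control, 7.97, 8.42 and 8.35 in fTyS, 7.53, 7.66 and 8.14 in SEW and 7.48, 7.34 and 9.95 in FTY. Birc5 after radiation had 7.74, 8.26 and 7.98 with radiation alone, 7.97, 8.43 and 7.81 in radiation+fTyS, 9.02, 8.23 and 7.84 in radiation+SEW and 8.70, 7.80 and 7.92 in radiation+FTY. Birc5 was higher in all fTyS arrays than in all control arrays, with a log2 fold change of 0.80 ± 0.44 (adjusted p = 0.388, limma). Nusap1, which bundles spindle microtubules, had 6.99, 7.05, 6.21 and 6.37 in control, 7.13, 7.73 and 7.43 in fTyS, 6.91, 7.43 and 7.41 in SEW and 6.80, 6.75 and 9.03 in FTY. Nusap1 under radiation was at 7.04, 7.06 and 6.92 with radiation alone, 7.31, 7.70 and 6.79 in radiation+fTyS, 7.75, 7.18 and 6.77 in radiation+SEW and 7.17, 6.74 and 6.92 in radiation+FTY. No FTY array other than replicate 3 exceeded the control range for Nusap1. Kif11, the kinesin that pushes spindle poles apart, was under the filter and had 6.28, 6.52, 5.58 and 5.98 in control, 6.41, 6.74 and 6.61 in fTyS, 6.25, 6.60 and 6.68 in SEW and 6.33, 6.17 and 8.37 in FTY. Its values with radiation were 6.32, 6.31 and 6.21 with radiation alone, 6.75, 6.97 and 6.24 in radiation+fTyS, 7.19, 6.47 and 6.11 in radiation+SEW and 6.56, 5.68 and 6.33 in radiation+FTY. On FTY replicate 3 it reached 8.37, and on no other array more than 7.19.

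Across the arrays the members moved with one another to different degrees. Pearson's r of a gene with the mean of the other tested members over 25 arrays was 0.97 for both Cdk1 and Ccna2, and 0.21 for Ccne1 and 0.24 for E2f1. Without FTY replicate 3 the median r over the 24 arrays was 0.92 for the mitotic cyclins and kinases, 0.78 for the kinetochore, checkpoint and anaphase genes, 0.75 for spindle and cytokinesis, 0.73 for DNA synthesis and nucleotides, 0.60 for the 6 MCM genes and 0.35 for the genes of S phase entry. Members of 1 role differed, with Plk1 at 0.38, Bub1 at 0.39 and Tpx2 at 0.21 among the mitotic genes and Tk1 at 0.85 and Rrm2 at 0.83 among those of DNA synthesis. Foxm1, the factor that drives mitotic genes, is counted here with the mitotic cyclins and kinases. It had -0.10 over those 24 arrays, and Ccne1 -0.07. Foxm1 levels there, 6.37 to 6.78, were close to the filter on low values. Another Ccne1 probe set, under the filter, had r of 0.255 with the one used over 25 arrays. Outside the listed genes and the further cell cycle list below, the 10 genes most like the members' mean over 25 arrays were Pclaf (r = 0.97), Ncapg2 (0.91), Ezh2 (0.88), H2ax (0.87), Cd5 (0.85), Hells (0.85), Ube2t (0.84), Thy1 (0.83), Ckap2l (0.83) and Endou (0.83). Cd5 and Thy1 are surface proteins of T cells. Over the 24 arrays without FTY replicate 3 the 10 were Pclaf (0.91), Ckap2l (0.82), Gas2l3 (0.81), Ncapg2 (0.79), Ube2t (0.78), Nfatc2 (0.75), Pole2 (0.74), Jpt1 (0.73), Gatm (0.72) and Tcf19 (0.71), and Cd5, Thy1, Ezh2, H2ax, Hells and Endou were no longer among them. The arrays of these correlations share their treatment groups, so r is a description.

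Promoters are shown because the mitotic genes and the genes of replication are known to be switched on by different promoter elements in the division cycle. Promoters of 31 of the 38 genes were in RefSeq (GRCm38.p6, 250 bases before the transcription start and 50 after it). Printed are the 250 bases before the start, 5′ to 3′ on the gene's strand, with Cdk1 and Top2a as mitotic and general genes and Mcm5 and Rrm2 as genes of replication. Cdk1 lies at chr10:69352913-69353162, minus strand. Top2a is at chr11:99024190-99024439, minus strand. The Mcm5 stretch is chr8:75109259-75109508, plus strand. That of Rrm2 is chr12:24708004-24708253, plus strand. Capitals mark matches, on either strand, to the CHR element and the E2F sites, and to CCAAT, the CCAAT box. The CHR element was searched as TTTGAA and, in its variant form, as TTCGAA. The E2F site was searched as TTCCCGC, in a variant form as TTGGCGC, in another variant as TTCGCGC and in the last variant as TTGCCGC.
Cdk1: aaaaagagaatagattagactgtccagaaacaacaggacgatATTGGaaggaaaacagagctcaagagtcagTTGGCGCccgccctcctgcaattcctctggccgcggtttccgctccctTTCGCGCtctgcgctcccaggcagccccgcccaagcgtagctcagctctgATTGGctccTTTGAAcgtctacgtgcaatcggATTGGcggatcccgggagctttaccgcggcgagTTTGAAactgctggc
Top2a: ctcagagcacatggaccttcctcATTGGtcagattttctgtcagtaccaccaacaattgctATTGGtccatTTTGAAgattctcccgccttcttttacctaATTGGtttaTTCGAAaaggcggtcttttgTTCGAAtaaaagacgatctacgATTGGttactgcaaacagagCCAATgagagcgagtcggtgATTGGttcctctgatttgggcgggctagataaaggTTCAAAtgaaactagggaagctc
Mcm5: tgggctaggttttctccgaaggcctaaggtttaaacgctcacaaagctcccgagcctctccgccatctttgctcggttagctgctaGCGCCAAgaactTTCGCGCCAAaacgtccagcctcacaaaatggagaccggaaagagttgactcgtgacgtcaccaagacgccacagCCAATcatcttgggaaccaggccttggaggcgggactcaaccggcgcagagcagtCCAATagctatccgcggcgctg
Rrm2: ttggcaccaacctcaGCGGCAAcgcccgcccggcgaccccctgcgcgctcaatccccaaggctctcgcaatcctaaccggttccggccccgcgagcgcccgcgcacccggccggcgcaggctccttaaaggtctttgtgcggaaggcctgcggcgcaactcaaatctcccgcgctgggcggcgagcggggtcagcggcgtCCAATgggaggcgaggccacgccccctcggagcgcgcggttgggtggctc

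Over the whole window of 300 bases, a CHR match was found in 14 of 17 promoters of mitotic and general genes (82.4%), in 2 of 14 promoters of S phase genes (14.3%) and in 19.4% of all 27025 promoters. E2F matches were in 3 of the 17 (17.6%), in 8 of the 14 (57.1%) and in 9.69% of all promoters. CCAAT was in 15 of the 17 (88.2%), 8 of the 14 (57.1%) and 37.9% of all. CHR and CCAAT matches stood together in the same 14 of 17 and 2 of 14 promoters, and in 7.70% of all. In the Mcm5 promoter 2 E2F matches overlap each other. A match is only a run of letters, and no binding was measured here.

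Radiation alone called none of the 30 genes against control (limma, 0 at an adjusted p of at most 0.05), beside 4.40% of all genes tested, and none without FTY replicate 3, beside 4.77%. At an unadjusted p under 0.05 the count was 1, beside 1014 higher and 1161 lower of all genes tested. It was Pcna, the sliding clamp of the replicative polymerases. The log2 fold changes of the 30 genes had a median of 0.14, beside -0.01 for all genes tested, and 26 of them were positive. Pcna was measured at 11.18, 11.04, 10.95 and 11.13 in control, 11.22, 11.16 and 11.35 in fTyS, 11.38, 11.33 and 11.44 in SEW and 11.33, 11.34 and 11.89 in FTY. Under radiation Pcna had 11.49, 11.26 and 11.25 with radiation alone, 11.37, 11.39 and 11.16 in radiation+fTyS, 11.25, 11.22 and 11.09 in radiation+SEW and 11.14, 10.93 and 11.13 in radiation+FTY. All 3 radiation arrays were above all 4 control arrays, and its log2 fold change was 0.26 ± 0.11 (adjusted p = 0.213, limma). Neutrophil genes averaged 10.09 to 11.37 in radiation and 7.56 to 8.86 in control, alveolar macrophage genes 8.43 to 8.70 and 8.79 to 9.34, and the DNA-damage list, whose groups overlapped, 10.53 to 10.66 and 9.26 to 10.59. Their part in the Pcna level was not tested. The highest control array in the DNA-damage list, at 10.59, lay within the radiation range. The unirradiated fTyS, SEW and FTY arrays had at most 9.90, 9.84 and 9.72. Every comparison with control and each interaction include that control array. Each control array was left out in turn in the alternatives below, and radiation against control then called 0 of 30 genes each time. The part of that control array was not tested in any other way. Mki67 had a log2 fold change of 0.36 ± 0.44 and Top2a of 0.34 ± 0.46, with adjusted p = 0.764 and 0.79 (limma).

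The same held for fTyS against control, where 0 of the 30 genes were called by limma, beside 0.178% of all genes tested. At an unadjusted p under 0.05 the count was 0, beside 807 higher and 1135 lower of all genes. The median log2 fold change of the 30 genes was 0.17, and 26 were positive. The 5 genes of kinetochore, checkpoint and anaphase had a median of 0.48, with a range from 0.13 to 0.90, the mitotic cyclins and kinases 0.50 and the 6 MCM genes 0.08. FTY replicate 3 belongs to neither group but enters the shared estimate of spread. Without it, 11 of the 30 genes had an unadjusted p under 0.05, all of them higher in fTyS. Over all genes tested, 861 were higher and 1206 lower at that p in the same fit. The lowest adjusted p among the 11 genes was 0.152, for Nusap1 (limma), so the count of calls stayed at 0 (0.294% of all genes). T cell genes averaged 7.62 to 7.98 on the fTyS arrays and 7.18 to 7.60 on the control arrays, and plasma cell genes 9.36 to 9.75 and 8.88 to 8.97. The part of these lists in the fTyS levels was not tested.

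That effect of a single array on the error applied to every comparison. In radiation+SEW against SEW, for example, the 95% confidence intervals of the 30 genes had a median half-width of 0.47 with all arrays and of 0.32 without FTY replicate 3, whereas over all genes tested it was 0.22 in both fits. Counts of calls among the 30 genes are therefore given from both fits.

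With SEW-2871 alone, E2f1, the transcription factor of the S phase genes, was lower than in control. E2f1 had 6.82, 6.85, 6.57 and 7.04 in control, 6.75, 6.82 and 6.72 in fTyS, 6.22, 6.43 and 6.20 in SEW and 6.66, 6.69 and 6.93 in FTY. Irradiated E2f1 levels were 6.45, 6.96 and 6.78 with radiation alone, 6.51, 6.76 and 6.79 in radiation+fTyS, 6.89, 7.02 and 7.25 in radiation+SEW and 7.01, 6.88 and 6.75 in radiation+FTY. All 3 SEW arrays lay below the other 22 arrays. Against control the log2 fold change was -0.54 ± 0.13 (adjusted p = 0.00971, limma), a 0.688-fold level. E2f1 was the single call of the 30 genes (3.33%), in a comparison that called 14.6% of all genes tested. Its level, at a mean of 6.75, is close to the filter, and the call was lost without SEW replicate 1 and when the fit held no arrays but those of both groups.

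When FTY replicate 3 was left out, SEW against control called 4 of 30 genes (13.3%), beside 15.4% of all genes. E2f1, Cdt1 and Mcm2 fell, with log2 fold changes of -0.54, -0.33 and -0.46 (adjusted p = 0.00896, 0.0384 and 0.0211, limma). Pcna rose by 0.31 (adjusted p = 0.0124). With all arrays Cdt1, Mcm2 and Pcna had adjusted p = 0.299, 0.17 and 0.0578 (limma). By role, the median log2 fold change was -0.18 for the 6 MCM genes and 0.21 for the 5 genes of kinetochore, checkpoint and anaphase, and no difference between the roles was tested. Beside the replication genes, plasma cell genes averaged 9.52 to 9.71 on the SEW arrays and 8.88 to 8.97 on the control arrays, germinal centre genes 7.20 to 7.37 and 6.96 to 7.18, adipocyte genes 9.20 to 10.71 and 7.55 to 9.03, and neutrophil genes 7.30 to 7.54 and 7.56 to 8.86. Their part was not tested.

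FTY720 alone gave opposite signs with and without its replicate 3. With it, the median log2 fold change of the 30 genes against control was 0.33 and 28 were positive. Without it, the median was -0.05 and 10 were positive, and the medians over all genes tested were -0.01 and -0.02. Pcna was the single call, with 0.45 ± 0.11 (adjusted p = 0.0326, limma), in a comparison that called 2.73% of all genes. The log2 fold change of Pcna without FTY replicate 3 was 0.26 ± 0.09 (adjusted p = 0.168, limma), and 0 of 30 genes were called, beside 0.271% of all genes. Plasma cell genes averaged 9.24 to 9.53 on the FTY arrays and 8.88 to 8.97 in control, with 9.31 as the highest without FTY replicate 3, and their part in the Pcna level was not tested. All 6 MCM genes had a positive value with this array and a negative one without it. The adjusted p of Pcna was also above 0.05 without control replicate 2, without control replicate 3 and when the fit held no arrays but those of both groups.

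**Figure D3:**
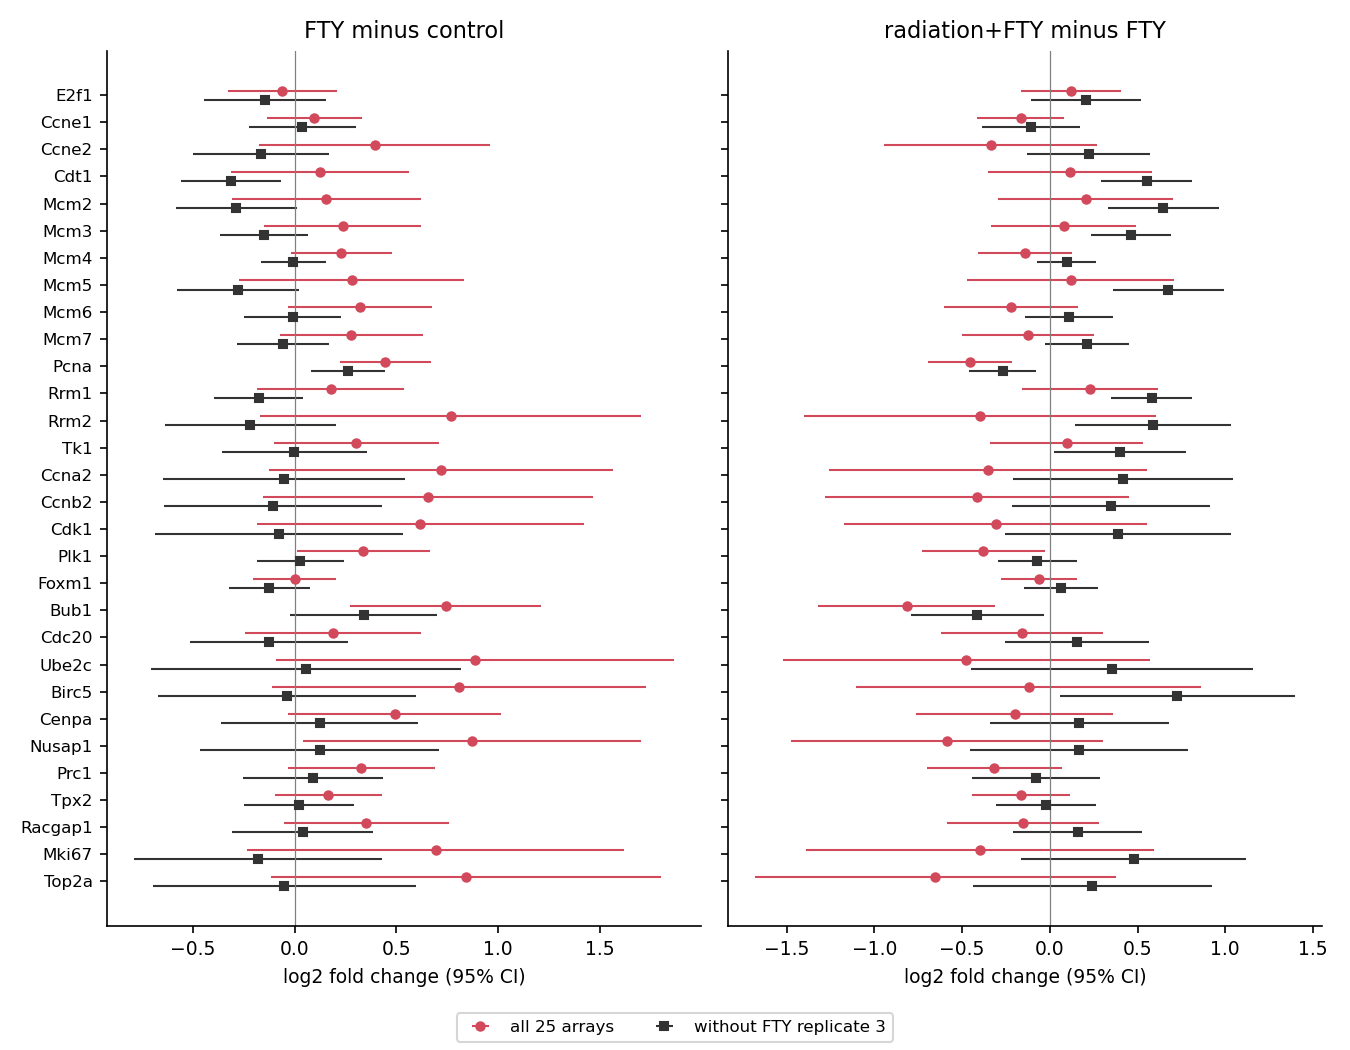
Log2 fold changes of the 30 tested genes with 95% confidence intervals of the limma fit, for FTY against control (left) and radiation+FTY against FTY (right), with all 25 arrays (red circles) and without FTY replicate 3 (black squares). The median moved from 0.33 to -0.05 in the left panel and from -0.18 to 0.22 in the right panel.

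E2f1 and Mcm2 were higher after irradiation in mice given SEW-2871. With all arrays, radiation+SEW against SEW called 2 of 30 genes (6.67%), both higher, beside 17.7% of all genes tested (13.8% higher). E2f1 rose by 0.77 ± 0.14 on the log2 scale (adjusted p = 0.00113, limma) and Mcm2, a subunit of the helicase, by 0.74 ± 0.24 (adjusted p = 0.0373). Mcm2 had 8.73, 9.07, 8.74 and 9.15 in control, 8.78, 8.89 and 8.89 in fTyS, 8.19, 8.66 and 8.55 in SEW and 8.51, 8.76 and 9.96 in FTY. In irradiated lungs Mcm2 was at 8.65, 9.01 and 8.92 with radiation alone, 9.05, 9.08 and 9.12 in radiation+fTyS, 9.34, 9.0 and 9.28 in radiation+SEW and 9.44, 9.18 and 9.23 in radiation+FTY. The SEW arrays, at 8.19 to 8.66, lay below all control arrays and below all radiation+SEW arrays in Mcm2. The E2f1 call held in all 16 alternatives in which it was tested, and that of Mcm2 in 11 of 18. Mcm2 was not called after quantile normalization, median centring or averaging of probe sets, nor without SEW replicate 1, SEW replicate 3, radiation+SEW replicate 1 or radiation+SEW replicate 3. Pcna, also a gene of replication, had -0.20 ± 0.12 (adjusted p = 0.258, limma), with all radiation+SEW arrays below all SEW arrays. DNA-damage genes averaged 10.61 to 10.69 in radiation+SEW and 9.63 to 9.84 in SEW, alveolar macrophage genes 8.25 to 8.56 and 8.94 to 9.40, and plasma cell genes 8.87 to 9.31 and 9.52 to 9.71. The part of these lists in E2f1 and Mcm2 was not tested.

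The same comparison without FTY replicate 3 called 8 of 30 genes (26.7%), all higher, beside 19.1% of all genes tested (14.8% higher). The calls were E2f1, Cdt1, Mcm2, Mcm3, Mcm4, Mcm5, Rrm1 and Rrm2, all of them genes of S phase entry and replication. The 4 MCM genes among them had log2 fold changes of 0.74 (Mcm2), 0.45 (Mcm3), 0.27 (Mcm4) and 0.75 (Mcm5). Those of the ribonucleotide reductase subunits were 0.54 for Rrm1 and 0.63 for Rrm2. None of the 16 genes of mitosis, spindle and general proliferation was called, but no difference between the roles was tested. The 5 mitotic cyclins and kinases, with Foxm1 counted among them, had a median log2 fold change of 0.33. The median half-width of their 95% confidence intervals was 0.51. The 6 MCM genes had a median of 0.36, with a half-width of 0.22. Mki67 had 0.23 ± 0.27 (adjusted p = 0.602, limma). With all arrays the 6 genes other than E2f1 and Mcm2 had adjusted p from 0.0501 (Rrm1) to 0.397 (Rrm2).

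Mcm5 shows these levels on each array. It had 8.32, 8.64, 8.34 and 8.76 in control, 8.60, 8.70 and 8.63 in fTyS, 7.94, 8.17 and 8.44 in SEW and 8.22, 8.25 and 9.91 in FTY. With radiation, Mcm5 was at 8.51, 8.50 and 8.57 with radiation alone, 8.90, 8.98 and 8.70 in radiation+fTyS, 9.15, 8.78 and 8.87 in radiation+SEW and 9.10, 8.72 and 8.91 in radiation+FTY. SEW replicates 1 and 2 and FTY replicates 1 and 2 were the 4 lowest of all arrays, and every radiation+SEW array was above every SEW array. Cdt1, which loads the helicase, had 8.21, 8.40, 8.37 and 8.45 in control, 8.48, 8.48 and 8.23 in fTyS, 7.83, 7.91 and 8.35 in SEW and 7.89, 8.20 and 9.36 in FTY. Irradiated Cdt1 levels came to 8.35, 8.33 and 8.21 with radiation alone, 8.48, 8.55 and 8.45 in radiation+fTyS, 8.43, 8.43 and 8.45 in radiation+SEW and 8.59, 8.55 and 8.65 in radiation+FTY. For Cdt1, SEW replicate 3 lay with the control arrays and SEW replicates 1 and 2 below them. Rrm1, the large subunit of ribonucleotide reductase, was at 8.55, 8.92, 8.71 and 8.70 in control, 8.79, 8.98 and 8.86 in fTyS, 8.30, 8.48 and 8.66 in SEW and 8.49, 8.59 and 9.61 in FTY. Rrm1 after 25 Gy had 8.92, 8.90 and 8.81 with radiation alone, 8.84, 9.05 and 8.72 in radiation+fTyS, 9.05, 8.92 and 9.08 in radiation+SEW and 9.13, 9.08 and 9.16 in radiation+FTY. Radiation+SEW and radiation+FTY arrays lay above all arrays of SEW and above FTY replicates 1 and 2. Mcm3 had 8.01, 8.36, 8.18 and 8.30 in control, 8.18, 8.21 and 8.29 in fTyS, 7.72, 8.09 and 8.0 in SEW and 8.0, 8.12 and 9.22 in FTY. Its levels after radiation were 8.29, 8.43 and 8.32 with radiation alone, 8.44, 8.43 and 8.41 in radiation+fTyS, 8.52, 8.23 and 8.42 in radiation+SEW and 8.55, 8.45 and 8.57 in radiation+FTY. Mcm3 probe sets did not all move alike, since 2 of its other 4 had r of 0.95 and 0.91 with the one used and 2 had -0.13 and 0.01. Rrm1 and Top2a each also had another probe set above the filter with a low r, 0.198 and -0.149. Over all members, 21 other probe sets were above the filter, of which 16 had r over 0.7 and 4 had r under 0.2.

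Rrm2, which limits deoxynucleotide supply in S phase, had 7.62, 8.11, 7.54 and 7.57 in control, 7.92, 8.02 and 8.42 in fTyS, 7.16, 7.76 and 7.92 in SEW and 7.49, 7.49 and 10.45 in FTY. Its irradiated levels were 7.91, 8.20 and 8.0 with radiation alone, 8.15, 8.17 and 7.92 in radiation+fTyS, 8.55, 8.16 and 8.02 in radiation+SEW and 8.10, 7.94 and 8.21 in radiation+FTY. SEW replicate 1 was the lowest and, apart from FTY replicate 3, radiation+SEW replicate 1 the highest. Mcm4 had 9.08, 9.28, 9.04 and 9.15 in control, 9.25, 9.26 and 9.27 in fTyS, 8.97, 9.07 and 9.08 in SEW and 9.11, 9.15 and 9.84 in FTY. With radiation Mcm4 was at 9.23, 9.20 and 9.10 with radiation alone, 9.25, 9.33 and 9.26 in radiation+fTyS, 9.32, 9.23 and 9.39 in radiation+SEW and 9.23, 9.08 and 9.36 in radiation+FTY. Radiation+SEW was above SEW on every array in both genes.

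**Figure D4:**
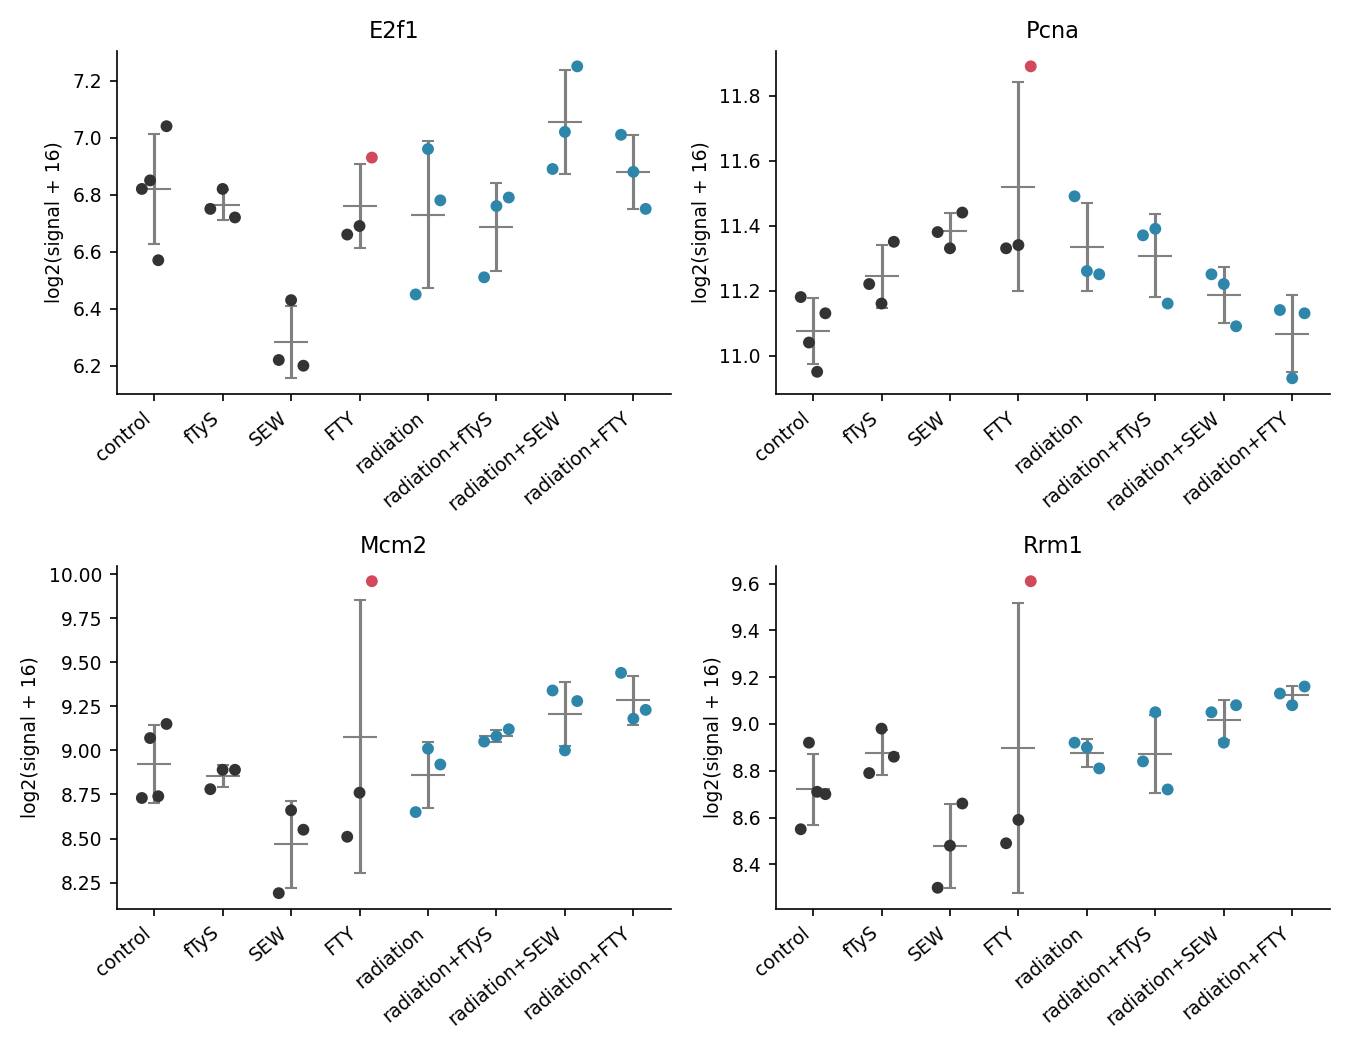
Levels of E2f1, Pcna, Mcm2 and Rrm1 as log2(signal + 16) on each array by group, with unirradiated arrays in black, irradiated arrays in blue and FTY replicate 3 in red; grey lines give the group mean and SD over all arrays of the group. In E2f1 the 3 SEW arrays, at 6.20 to 6.43, lie below all other arrays.

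Irradiation under FTY720 again depended on the single array. With all arrays, radiation+FTY against FTY called 2 of 30 genes (6.67%), both lower, beside 14.1% of all genes tested (4.99% lower). Pcna fell, with a log2 fold change of -0.45 ± 0.12 (adjusted p = 0.0145, limma), as did Bub1, a kinase of the spindle checkpoint, with -0.82 ± 0.24 (adjusted p = 0.0297). Bub1 had 6.78, 6.64, 6.40 and 6.32 in control, 6.79, 6.90 and 6.70 in fTyS, 6.58, 6.82 and 6.84 in SEW and 6.68, 7.07 and 8.08 in FTY. Irradiated arrays had Bub1 levels of 6.17, 6.74 and 6.72 with radiation alone, 6.86, 6.79 and 6.71 in radiation+fTyS, 7.0, 6.56 and 6.66 in radiation+SEW and 6.59, 6.26 and 6.53 in radiation+FTY. FTY replicate 3 was the highest of all, and even without it the FTY arrays stayed above the radiation+FTY arrays in both genes. Without that array Pcna had -0.27 ± 0.09 (adjusted p = 0.063) and Bub1 -0.41 ± 0.18 (adjusted p = 0.146, limma). Pcna was called in 14 of 17 alternatives, and also lost without radiation+FTY replicate 2, and Bub1 in 9 of 15, and also lost without each of the radiation+FTY arrays.

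With FTY replicate 3 left out, 5 of 30 genes (16.7%) were called and all were higher in radiation+FTY, beside 11.3% of all genes tested (7.11% higher). They were Cdt1 (0.55 on the log2 scale), Mcm2 (0.65), Mcm3 (0.46), Mcm5 (0.68) and Rrm1 (0.58), with adjusted p from 0.0042 (Rrm1) to 0.0117 (Mcm3; limma). With all arrays the same genes had 0.11, 0.20, 0.08, 0.12 and 0.23, none called. All 5 were among the 8 called in radiation+SEW against SEW without that array, which is 62.5% of the 8 and 100% of the 5. Over all genes tested, 566 were called higher in both comparisons in that fit, which is 29.5% of the 1918 in radiation+SEW against SEW and 61.5% of the 920 in radiation+FTY against FTY. These comparisons share no array, but they share the estimate of spread. Neutrophil genes averaged 8.94 to 10.32 in radiation+FTY and 7.67 to 8.10 in FTY, and the DNA-damage list 10.48 to 10.62 and 9.57 to 9.72. Without FTY replicate 3, B cell genes were also apart, at 8.27 to 8.60 and 7.52 to 7.96, as were alveolar macrophage genes, at 8.58 to 8.97 and 9.08 to 9.25, and thymocyte genes, at 6.03 to 6.18 and 5.80 to 6.0. Skeletal muscle genes and neutrophil precursor genes lay higher in radiation+FTY as well, and the part of these lists in the called genes was not tested.

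Irradiation under fTyS called 0 of 30 genes against fTyS by limma, beside 0.456% of all genes tested. At an unadjusted p under 0.05 the count was 0, beside 979 higher and 742 lower of all genes. Mcm2 had 0.23 ± 0.24, Mcm5 0.22 ± 0.28 and Mki67 -0.23 ± 0.48. The median over the 30 genes was 0.00, with 15 genes on each side of 0. The count was also 0 without FTY replicate 3, beside 0.58% of all genes.

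Adding a compound to radiation called none of the 30 genes by limma, with fTyS (0.858% of all genes tested were called), SEW (2.48%) or FTY (3.02%). At an unadjusted p under 0.05 fTyS had a count of 0, beside 826 higher and 784 lower of all genes. SEW had 1 higher, beside 1379 and 857, and FTY 1 lower, beside 1800 and 1210. Without FTY replicate 3, fTyS had 1 higher (889 and 823) and SEW 4 higher (1424 and 895). FTY had 4 higher and 1 lower there (1824 and 1290). The medians of the 30 genes were 0.12, 0.17 and 0.01 on the log2 scale. The 3 comparisons share the radiation arrays. Mcm5 had 0.33 ± 0.28 with fTyS and 0.41 ± 0.28 with SEW, and Mcm2 0.42 ± 0.24 with FTY. Pcna had -0.27 ± 0.12 with FTY (adjusted p = 0.173, limma), and its radiation+FTY arrays lay below all radiation arrays. Leaving out FTY replicate 3 gave 0 calls in these comparisons as well, beside 1.12% of all genes with fTyS, 3.08% with SEW and 3.43% with FTY.

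The difference between the radiation responses was tested as an interaction, radiation with a compound minus the compound, less radiation minus control. For SEW, E2f1 was the single call of 30 genes (3.33%), with 0.86 ± 0.19 (adjusted p = 0.00643, limma), beside 13.9% of all genes tested. It was called in all 23 alternatives in which it was tested. Without FTY replicate 3, 5 genes were called (16.7%), beside 15% of all genes, with Cdt1 (0.47), Mcm2 (0.80) and Mcm5 (0.74) higher as well and Pcna (-0.45) lower. For FTY, Pcna was the single call (3.33%), with -0.71 ± 0.16 (adjusted p = 0.0135, limma), beside 6.84% of all genes. Without that array it had -0.53 ± 0.12 (adjusted p = 0.0194), and Cdt1 and Mcm2 were called higher (0.61 and 0.71), in all 3 of 30 (10%) beside 5.61% of all genes. For fTyS 0 of 30 genes were called by limma, beside 1.35% of all genes, and 0 without FTY replicate 3, beside 1.9%. The fTyS count at an unadjusted p under 0.05 was 0, beside 1130 higher and 829 lower of all genes. The interactions share the control and radiation arrays. In the fit without FTY replicate 3, Pcna had -0.45 for SEW and -0.53 for FTY, and the -0.71 for FTY includes that array.

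**Figure D5:**
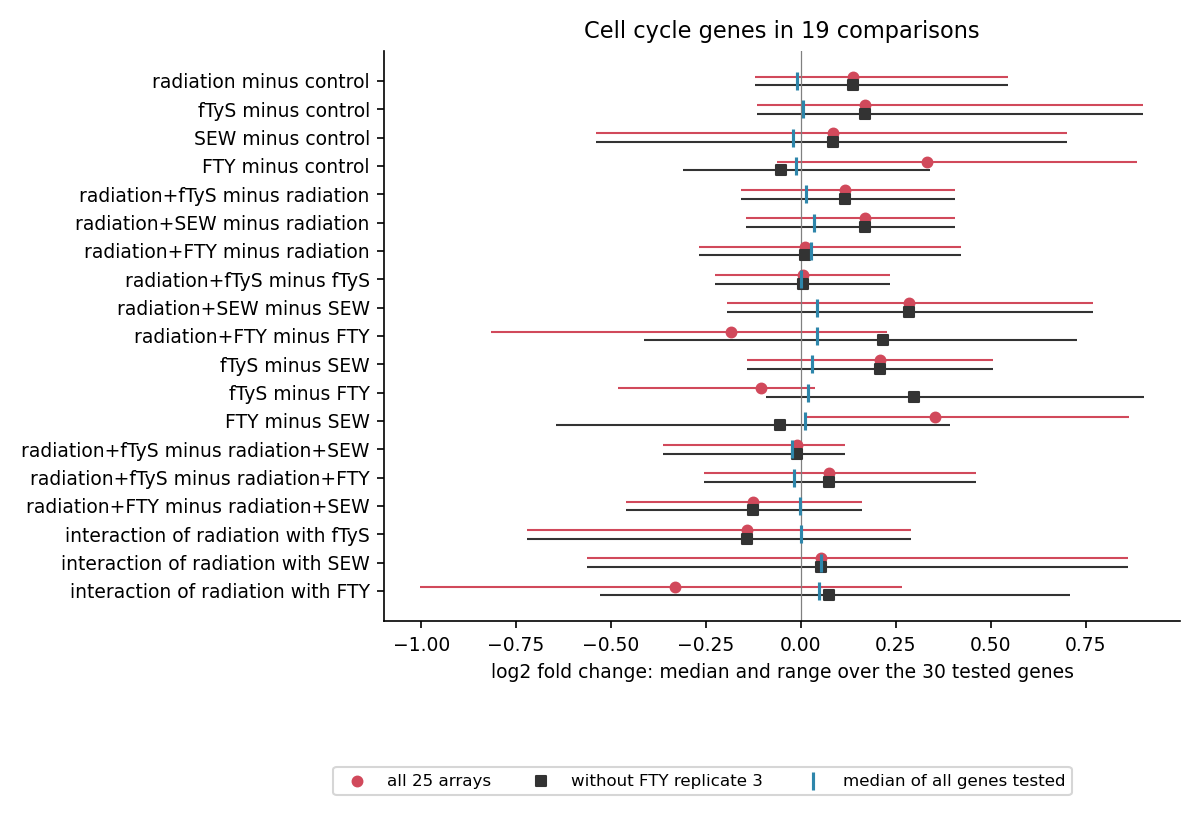
Median (points) and range (lines) of the log2 fold changes of the 30 tested genes in 19 comparisons, with all 25 arrays (red) and without FTY replicate 3 (black), and the median of all 12937 genes tested (blue ticks). The comparisons that hold the FTY group move between the fits, such as FTY against SEW from 0.35 to -0.06.

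The compounds were compared with one another at the same dose, in 6 pairs. With all arrays 0 of 30 genes were called by limma in any pair. Beside them, 1.55% of all genes tested were called in fTyS against SEW and 3.95% in radiation+fTyS against radiation+FTY, and 0% in the other 4 pairs. At an unadjusted p under 0.05, fTyS against SEW had 2 genes higher, beside 1584 higher and 682 lower of all genes tested. For fTyS against FTY 2 were lower (556 higher and 213 lower of all genes), and for FTY against SEW 7 higher (762 and 416). Radiation+fTyS against radiation+SEW had 1 lower (515 and 899), and the other irradiated pairs 0. Without FTY replicate 3, fTyS against SEW had 8 higher (1685 and 716). That fit had 11 higher for fTyS against FTY (608 and 298) and 1 higher for FTY against SEW (656 and 270). Each irradiated pair had at most 1 gene in each direction there. The median of fTyS against FTY moved from -0.10 to 0.30. With all arrays E2f1 was higher in fTyS than in SEW by 0.48 (95% confidence interval 0.20 to 0.77, adjusted p = 0.0717, limma). In that pair Rrm1 was called without FTY replicate 3, higher in fTyS by 0.40 ± 0.10 (adjusted p = 0.0402), as 1 of 30 genes (3.33%) beside 2.32% of all genes. The other 5 pairs had 0 calls without that array, beside 4.37% of all genes in radiation+fTyS against radiation+FTY and 0% in the other 4. FTY720 and its phosphonate relative differed in Mki67 by 0.03, fTyS minus FTY, with an interval from -0.96 to 1.02, and without FTY replicate 3 by 0.90, from 0.26 to 1.54 (adjusted p = 0.56, limma). The intervals do not show that the compounds act alike.

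Of 97 further names of cell cycle genes, 93 were on the array and 74 were tested. SEW against control called 1 higher and 3 lower with all arrays (5.41%), beside 14.6% of all genes tested. Cit, a kinase of cytokinesis, rose by 0.53 (adjusted p = 0.0481, limma), while Gmnn, the Cdt1 inhibitor geminin, had -0.64, Pold1, a DNA polymerase subunit, -0.46 and Orc6, of the origin recognition complex, -0.26. With FTY replicate 3 left out it called 0 higher and 5 lower (6.76%), beside 15.4% of all genes, with Cdk2 (-0.32) and Rfc3 (-0.29) added and Cit no longer called (adjusted p = 0.0501, limma).

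Radiation+SEW against SEW called 4 of the 74 higher and 3 lower (9.46%), beside 17.7% of all genes tested. The higher ones were Ncaph, a condensin subunit (0.64), Pold1 (0.49), Rfc3, a subunit of the clamp loader (0.49), and Orc3 (0.28). Cit (-0.55), the kinesin Kif22 (-0.42) and Orc2 (-0.22) were lower. The fit without FTY replicate 3 called 15 higher and 3 lower (24.3%), beside 19.1% of all genes, among them Uhrf1, which couples DNA methylation to replication (0.95), and Spc25, of the kinetochore (0.73).

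In the same list radiation+FTY against FTY called 1 higher and 2 lower with all arrays (4.05%), beside 14.1% of all genes tested. They were Cdc25b (0.31), Kif18a (-0.90) and Kif22 (-0.39). Without FTY replicate 3 it called 10 higher and 1 lower (14.9%), beside 11.3% of all genes, with Uhrf1 at 0.93, Pold1 at 0.65, Spc25 at 0.60 and Incenp at 0.58 on the higher side, and Kif18a at -0.59 on the lower. Kif22 was not called there (adjusted p = 0.113, limma). Radiation against control and fTyS against control called 0 of the 74 (limma). At an unadjusted p under 0.05 radiation had 2 higher and 4 lower, beside 1014 and 1161 of all genes tested. fTyS had 0 higher and 3 lower, beside 807 and 1135. FTY against control called 0, with 7 higher and 5 lower at that p, beside 802 and 1588. Without FTY replicate 3 it had 0 higher and 10 lower, beside 626 and 1210. In that fit radiation had 6 higher and 5 lower (1078 and 1197) and fTyS 6 and 4 (861 and 1206). With all arrays the interaction with SEW called Pold1 (0.70) and Rfc3 (0.54) higher and Kif22 (-0.50) lower. That with FTY called Cdc45, of the replicative helicase, higher (0.71) and Kif18a lower (-1.11). The other comparisons called none of the 74 with all arrays.

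Without FTY replicate 3, radiation against control called 1 of the 74 (1.35%, beside 4.77% of all genes), Ckap2, at 0.53 (adjusted p = 0.0421, limma). Radiation+FTY against radiation called 1 (beside 3.43% of all genes), Pold1, at 0.45, and fTyS against SEW 1 (beside 2.32%), Rfc3, at 0.36. Radiation+fTyS against radiation+FTY called 2 (2.7%, beside 4.37%), Smc4 at 0.27 and Rpa2 at -0.33. The interaction with SEW called 4 higher and 1 lower (6.76%, beside 15% of all genes), adding Gmnn (0.81) and Uhrf1 (0.83), and that with FTY 2 higher and 1 lower (4.05%, beside 5.61%), adding Pold1 (0.85). Apart from these, SEW against control, radiation+SEW against SEW and radiation+FTY against FTY, the comparisons called none of the 74 in that fit.

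The 7 genes under the filter stayed low outside FTY replicate 3. Over the other 24 arrays Cdc6 ran from 5.92 to 6.75, Tyms (thymidylate synthase) from 5.56 to 6.35, Aurka from 5.95 to 7.0 and Aurkb from 5.51 to 6.52. Bub1b, of the spindle checkpoint, ran from 5.92 to 6.92, Kif11 from 5.58 to 7.19 and Kif20a, a kinesin of cytokinesis, from 5.01 to 6.43. On FTY replicate 3 Cdc6 had 7.39, Aurka 7.49, Aurkb 7.14, Bub1b 7.87 and Kif20a 6.66, each above that range, while Tyms had 6.09, inside it. Of the tested genes not yet given, Ccne1 ran from 6.92 to 7.42, Ccne2 from 6.36 to 7.17, Tk1 (thymidine kinase) from 6.12 to 7.11 and Foxm1 from 6.37 to 6.78 on the other 24 arrays. Mcm6 lay between 9.01 and 9.56 there, Mcm7 between 9.29 and 9.81 and Cdc20, the activator of the anaphase-promoting complex, between 8.96 and 9.79. The kinase Plk1 lay between 6.58 and 6.98, the centromeric histone Cenpa between 7.74 and 8.72, Prc1 of the spindle midzone between 7.20 and 7.91, Tpx2 between 7.34 and 7.87 and Racgap1, of cytokinesis, between 6.32 and 7.14.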

How the data were processed

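Total lung RNA (6 ug per the labels) was biotin-labelled and hybridised to 25 Affymetrix mouse arrays, 1 per mouse. Each array has 1 deposited signal intensity per probe set, on a linear scale, made by the authors with GCOS, per the submitters' processing notes; summary method, background correction and scaling are not given in the sources used here. Array medians ran from 118.05 to 129.28, and the number of arrays limits the precision. Signals became log2(signal + 16). Annotation gave 1 symbol to 34945 of 45101 probe sets, and the others were left out. Each gene was read from its probe set with the highest mean, and 12937 of 18193 genes had a mean above the 40th percentile of all probe sets (6.49).

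One limma fit (limma 3.58.1, R 4.3.3) of 8 group means, with eBayes and its trend option and 17 residual degrees of freedom, gave 19 comparisons, two-sided, with Benjamini-Hochberg adjustment over all genes tested in each. It was tested on simulated data. FTY replicate 3 was left out of a second fit of every comparison. Also tried were a pseudocount of 1 or 64, median centring, quantile normalization, the filter at the 60th percentile or none, averaged probe sets, array weights, eBayes without trend, fits without arrays of other groups, a replicate block and leaving out each array.

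The labels give no batch. Residuals of arrays with the same replicate number had correlations from -0.836 to 0.781, and all 3 same-numbered pairs were over 0.1 in 5 comparisons: fTyS against control, radiation against control, FTY against SEW, and radiation+fTyS against both fTyS and radiation. The pairing comes from these values and not from the labels.

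Values on every array are given for Mki67, Top2a, Cdk1, Mcm5, Pcna, each gene called in a comparison and the 10 genes with the largest difference of FTY replicate 3 from its group. Genes called without that array were added after their values were seen. The other cell cycle genes named are up to 4 called in each direction, and those given from the fit without FTY replicate 3 were chosen after their values were seen. The members, the lists and the tests were chosen with earlier results of these data known.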

Additional observations from a re-analysis of the deposited data

Results flagged for a closer look

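Rrm2 in control replicate 2 had a log2(signal + 16) of 8.11, and the other control arrays had 7.54 to 7.62, so that this array was far from the rest of its group. It was the single such case among 37 genes, and chance gives about 5% of groups such a gap. The response of E2f1 to radiation differed between mice given SEW-2871 and mice given none, with an interaction of 0.86 on the log2 scale (adjusted p = 0.00643, limma). The response of Pcna differed between mice given FTY720 and mice given none, with an interaction of -0.71 (adjusted p = 0.0135, limma).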

How the results depend on the processing

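Of the 19 counts of called genes, 11 stayed within 1.5 times their value in every alternative run, and all 11 were counts of 0 that stayed at 0. Every count above 0 moved beyond that limit in at least 1 alternative. Radiation+SEW against SEW called 2 genes, and 1 after quantile normalization, 1 after median centring, 0 when a gene's probe sets were averaged, 8 under array weights and 6 when no other arrays were fitted. It called 1 without SEW replicate 1, SEW replicate 3, radiation+SEW replicate 1 or radiation+SEW replicate 3 and 8 without FTY replicate 3. SEW against control called 1, and 2 after median centring, 0 with the filter at the 60th percentile, 0 for averaged probe sets and 3 under array weights. Leaving out arrays took it to 0 (SEW replicate 1), 2 (control replicate 1) and 4 (FTY replicate 3). The interaction with SEW called 1, and 2, 0, 0 and 3 under these settings, and 4 when no other arrays were fitted. With single arrays left out it called 1 to 5, with 2 without control replicate 1 and 5 without FTY replicate 3. E2f1 was not tested with the filter at the 60th percentile or with averaged probe sets. The counts of those fits therefore leave it out, and do not show a lost call of E2f1. The same fits did not test Bub1, a call in radiation+FTY against FTY. Radiation+FTY against FTY called 2, and 1 with the filter at the 60th percentile, 1 for averaged probe sets and 0 when no other arrays were fitted. Without radiation+FTY replicate 2 it called 0, without replicate 1 or 3 of that group 1, and without FTY replicate 3 it called 5. FTY against control called 1 and the interaction with FTY 1, both 0 when no other arrays were fitted. The former called 0 without control replicate 2, control replicate 3 or FTY replicate 3 and 2 without FTY replicate 1, and the latter 2 without FTY replicate 1 and 3 without FTY replicate 3. fTyS against SEW called 0, and 4 under array weights and 1 without FTY replicate 3, and FTY against SEW called 0, and 1 under array weights.

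In radiation+FTY against FTY, log2 fold changes turned their sign for some genes with single arrays left out, from -0.18 to 0.55 for Cdt1, from -0.0783 to 0.65 for Mcm2, from -0.14 to 0.46 for Mcm3 and from -0.17 to 0.68 for Mcm5. The lowest values came without FTY replicate 1 and the highest without FTY replicate 3. They also turned for Mcm3 after quantile normalization (-0.0271), median centring (-0.0055) and averaging of probe sets (-0.0176), and after that averaging for Mcm5 (-0.0348) and Rrm1 (-0.18). The interaction with FTY ran from -0.12 to 0.61 for Cdt1 and from -0.0159 to 0.71 for Mcm2, between the same left-out arrays. Apart from the arrays left out, the cause was not tested. With the replicate block, radiation+SEW against SEW called 2 genes and SEW against control 1, and the block changed no count.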
